A study of Caenorhabditis elegans with 22 samples.

Results

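The 9 Caenorhabditis elegans genes described here are known as template loci of the small interfering RNAs (siRNAs) bound by the Argonaute ERGO-1. They were E01G4.7, K02E2.6, F55C9.3, F55C9.5, C44B11.6, W04B5.1, C36A4.11, W05H12.2 and C40A11.10. All 9 were taken from a list of names, with no filter on their values, out of 46780 genes in the small RNA tables. The list was drawn up with earlier results of these data known. The series held 22 samples of whole young adults with embryos, 70 h after L1 arrest at 20 °C, of which 8 were small RNA, 8 total RNA and 6 mRNA libraries.

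In this pathway ERGO-1 binds primary siRNAs that are made in the germline and embryo with the RNA-dependent RNA polymerase RRF-3, Dicer and the helicase ERI-6/7, whose mRNA is joined by trans-splicing from the eri-6 and eri-7 transcripts. Polymerases of the mutator machinery then copy the target RNA into secondary siRNAs, and the Argonaute NRDE-3 carries these into nuclei of the soma, where the target locus is silenced. Many ERGO-1 targets are young, duplicated genes or pseudogenes. The proteins ADR-1 and ADR-2 belong to the ADAR family, and ADR-2 deaminates adenosine to inosine in double-stranded RNA, which is also the substrate of Dicer.

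Each of 4 genotypes had 2 small RNA and 2 total RNA libraries. The adr-1 eri-6;adr-2 libraries came from strain GR1744, which carries adr-1(gv6), eri-6(mg379) and adr-2(gv42). The eri-6 libraries came from strain GR1814, which carries eri-6(mg379). For adr-1;adr-2, small RNA replicate 1 was strain BB4 with adr-1(gv6) and adr-2(gv42) and replicate 2 was strain BB21 with adr-1(tm668) and adr-2(ok735). In total RNA the labels of adr-1;adr-2 combine the strain name BB4 with the alleles of BB21. The wild-type small RNA libraries were GR1831, which carries the transgene mgIs30, in replicate 1 and N2 in replicate 2, and wild-type total RNA was N2. Messenger RNA was measured in GR1744 and N2 on bacteria for nrde-3 RNAi, drh-1 RNAi or the control vector L4440, with 1 library of each. DRH-1, a relative of the vertebrate sensor RIG-I, is a helicase that takes part in antiviral RNA interference. All values are from whole animals, so fewer cells of a type and less RNA per cell cannot be told apart.

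The small RNA libraries held 29683818 and 10904105 reads in eri-6, 32303754 and 15417839 reads in adr-1;adr-2, and 25690179 and 12446099 reads in wild type. Replicate 2 was the shallower one in each of these genotypes. For adr-1 eri-6;adr-2 only selected genes have values, so its depth is not known. In total RNA, eri-6 had 5.73 FPKM (fragments scaled to transcript length and library size) in adr-1 eri-6;adr-2, 5.35 FPKM in eri-6 and 10.1 FPKM in adr-1;adr-2, against 17.8 FPKM in wild type. The deposited bounds of the eri-6 gene in both eri-6 mutants lay below those of wild type. Small RNA at adr-1 was 67.9 and 85.3 normalised reads in adr-1;adr-2, against 328 and 621 in wild type, and at adr-2 it was 124 and 138, against 257 and 515. Neither the total RNA nor the mRNA values come with a depth, and the mRNA values have no bounds.

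The 9 loci lie on 4 chromosomes, and 3 of them are annotated as pseudogenes in RefSeq (WBcel235). The spans given here are those deposited with total RNA, and RefSeq spans can differ. In RefSeq C44B11.6 is 189 bp long, against 737 bp as deposited. W05H12.2 is 748 bp, against 1391 bp, and F55C9.5 is 2510 bp, against 808 bp. E01G4.7, a pseudogene, spans chrII:13477471-13478929. W04B5.1, a pseudogene, spans chrIII:2428194-2429389. W05H12.2, the third pseudogene, spans chrI:13411756-13413146 and overlaps W05H12.4. The 5 protein-coding loci are K02E2.6 at chrV:20380580-20382036, which overlaps K02E2.12 (4784 reads over the 6 libraries), F55C9.3 at chrV:19287009-19288159, F55C9.5 at chrV:19290619-19291426, C44B11.6 at chrIII:3152736-3153472 and C36A4.11 at chrIII:3840595-3841150. C40A11.10 spans chrII:2136532-2137300 and is listed in RefSeq as a microRNA gene, mir-8199. F55C9.3 and F55C9.5 are neighbours on chromosome V with only fbxb-57 between them in the deposited annotation. No label states how reads that match more than 1 copy were counted, so the split between similar or overlapping loci is uncertain. No locus among the 9 matched another gene in its reads throughout the 6 libraries.

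Small RNA per kilobase of the deposited gene span differed widely among the loci in wild type. On this scale of mean normalised reads per kilobase (n = 2), C44B11.6 was highest at 16553, followed by C36A4.11 at 8501, K02E2.6 at 7366, E01G4.7 at 5867, W04B5.1 at 5601, W05H12.2 at 2912, C40A11.10 at 1310, F55C9.3 at 1258 and F55C9.5 at 904. The gaps below C44B11.6, between K02E2.6 and E01G4.7, and between F55C9.3 and F55C9.5 exceeded the SD over the 2 wild-type libraries of both loci concerned. Every other gap between neighbours in this order was smaller than the SD of at least 1 of its 2 loci. Together the 9 loci held 0.00796% and 0.0367% of reads in eri-6, 0.128% and 0.511% in adr-1;adr-2, and 0.190% and 0.375% in wild type. In each of these genotypes the share was higher in replicate 2, which also carried a different strain in adr-1;adr-2 and wild type. The part of strain or replicate number in this was not tested. The Wilson 95% interval of the lowest share ran between 0.00765% and 0.00829%, and it covers counting error only.

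The first comparison was that of eri-6 with wild type, which asks what small RNA is found at each locus without ERI-6/7. At 8 of the 9 loci almost all small RNA was missing in eri-6, and W05H12.2 was the exception. Both eri-6 libraries lay below both wild-type libraries at these 8 loci, which was true of 7.4% of all 23380 genes tested. They were also at least 4-fold below every wild-type library at the same 8, against 0.672% of all genes. Both counts were chosen after the values had been seen.

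Of the protein-coding loci, C36A4.11 had 13.4 and 27.7 normalised reads in eri-6, against 3493 and 5960 in wild type. Its log2 difference was -7.81 ± 0.78 (SE, n = 2 each; limma adjusted p = 0.0680). F55C9.5 had 4.20 and 6.93 normalised reads in eri-6, against 763 and 698 in wild type. These are 5 and 6 recovered reads in the eri-6 libraries, so this locus was close to undetected in eri-6. Its neighbour F55C9.3 had 10.1 and 17.3 normalised reads in eri-6, against 1535 and 1360 in wild type. The log2 differences of this pair were -6.83 ± 0.79 and -6.67 ± 0.75. K02E2.6 had 80.6 and 208 normalised reads in eri-6, against 9477 and 11987 in wild type. C44B11.6, the locus with most small RNA per kilobase, had 186 and 303 in eri-6, against 12090 and 12309 in wild type. For K02E2.6 and C44B11.6 the eri-6 mean was 1.34% and 2.0% of the wild-type mean, so both kept a residue larger than that of the F55C9 pair, at 0.947% and 0.762%.

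The pseudogenes did not behave alike. W04B5.1 had 14.3 and 35.8 normalised reads in eri-6, against 4051 and 9346 in wild type, which was the deepest loss of the 9 with a log2 difference of -8.02 ± 0.84 (limma adjusted p = 0.0708). E01G4.7 had 262 and 594 in eri-6, against 7130 and 9991 in wild type. Its mean in eri-6 was 5.0% of wild type, the largest residue of the 8 low loci. W05H12.2 had 1410 and 3399 normalised reads in eri-6, against 2000 and 6101 in wild type. Here the groups overlapped, and the log2 difference of -0.67 ± 0.91 was smaller than its error. Its overlapping neighbour W05H12.4 held 19540 reads over the 6 libraries, and whether reads were shared between them was not tested. C40A11.10 had 4.20 and 27.7 normalised reads in eri-6, against 617 and 1397 in wild type, a log2 difference of -6.25 ± 1.05.

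No locus passed an adjusted p of 0.05 in this comparison by limma, and neither did any other gene, so 0% of the 23380 genes were called. The adjusted p of the 8 low loci ran between 0.0680 for C36A4.11 and 0.281 for E01G4.7, and 237 genes, or 1.01%, had an unadjusted p under 0.05. The tools differed. By edgeR's quasi-likelihood test on the recovered reads 0 of 9 loci and 0% of genes passed, with 247 genes at an unadjusted p under 0.05. By DESeq2 the same 8 loci passed as lower, against 0.53% of all genes called lower and 0.0599% called higher. With replicate number as a block in the model, limma called 8 of the 9, all lower, beside 98 genes lower and 8 higher. The labels do not say that these numbers pair libraries. With any 1 of the 4 libraries left out, limma called between 4 and 8 of the 9, all lower. Without eri-6 replicate 1 it called 4, beside 42 of the 23380 genes lower and 1 higher, and without eri-6 replicate 2 it called 7, beside 58 lower and 0 higher. Without GR1831 (wild-type replicate 1) it called 8, beside 90 genes lower and 11 higher, and without N2 (wild-type replicate 2) 7, beside 71 lower and 7 higher. Within a replicate number, with all 6 libraries scaled together, the median log2 difference of the 9 loci was -6.97 in replicate 1 and -5.78 in replicate 2, and that of all genes was -0.08 and 0.04.

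**Figure D1:**
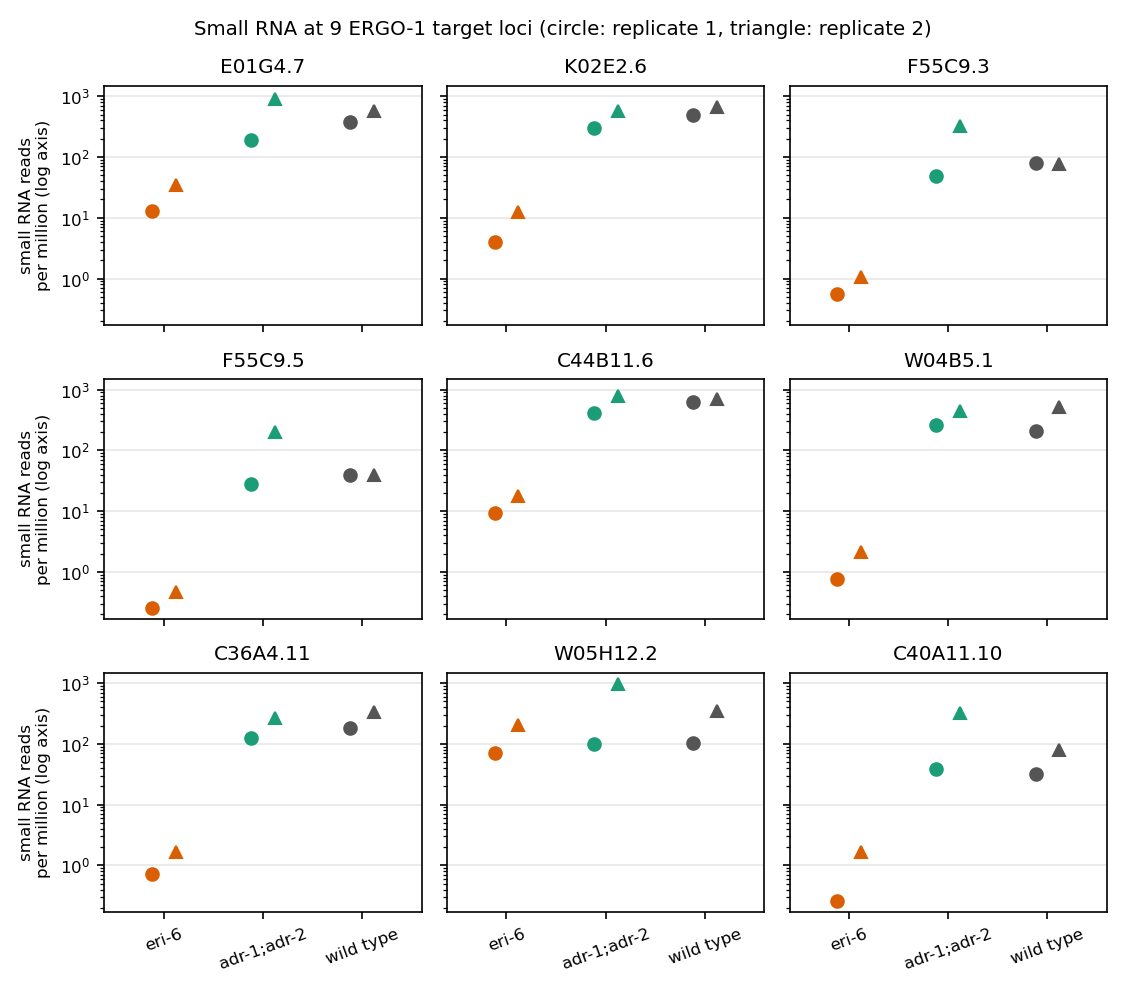
Small RNA reads (CPM, scaled to library size) at each of the 9 loci (log axis, 6 libraries scaled together) in eri-6, adr-1;adr-2 and wild type, with circles for replicate 1 and triangles for replicate 2. The eri-6 libraries lie far below the others at 8 loci and overlap wild type at W05H12.2, and adr-1;adr-2 replicate 2 lies above replicate 1 at all 9.

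The small RNA of adr-1;adr-2 was set against the same wild-type libraries, to ask whether loss of the ADAR proteins alters siRNAs at these loci. At 0 of 9 loci did the groups separate, where 9.48% of all 23975 genes lay lower and 7.3% higher without overlap. Limma called 0 of 9, and 0% of all genes, with 324 genes at an unadjusted p under 0.05. edgeR also called 0% of all genes, with 463 at an unadjusted p under 0.05. DESeq2 called 0.0417% of all genes lower and 0.467% higher, and 0 of the 9. The log2 differences lay between -0.55 ± 0.99 for K02E2.6 and 1.06 ± 1.12 for C40A11.10.

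The 2 adr-1;adr-2 libraries, which came from different strains, were far apart from each other. F55C9.3 had 934 normalised reads in BB4 and 6035 in BB21, against 1622 and 1516 in wild type. Its neighbour F55C9.5 had 536 in BB4 and 3729 in BB21, against 807 and 778 in wild type. Both loci were thus below the wild-type range in BB4 and above it in BB21. W05H12.2 had 1952 in BB4 and 18281 in BB21, against 2113 and 6800 in wild type, and C40A11.10 had 740 and 5933, against 652 and 1557. E01G4.7 had 3726 in BB4 and 16949 in BB21, against 7534 and 11136 in wild type. At K02E2.6, C44B11.6, W04B5.1 and C36A4.11 the gap between the strains was smaller. K02E2.6 had 5839 in BB4 and 10711 in BB21, against 10013 and 13360 in wild type.

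Scaled together, BB21 lay above BB4 at 9 of 9 loci, by a median of 2.24 on the log2 scale, where the median over all genes was -0.09. The same step between replicates 2 and 1 had a median of 1.43 in eri-6, where both libraries were GR1814, and 0.59 in wild type. Against the wild-type library of the same number, the median log2 difference of the 9 loci was -0.53 in BB4 and 0.69 in BB21. Strain and replicate number cannot be told apart in adr-1;adr-2.

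A joint fit of the 6 libraries compared eri-6 with adr-1;adr-2 directly. Limma called 3 of the 9 loci lower in eri-6 and 0 higher, against 0.123% and 0.00411% of all 24342 genes. W04B5.1 was lower by a log2 difference of -8.06 ± 0.88 (adjusted p = 0.0238), C36A4.11 by -7.40 ± 0.84 (adjusted p = 0.0245) and F55C9.5 by -7.75 ± 1.02 (adjusted p = 0.0438). F55C9.3, K02E2.6 and C44B11.6 had log2 differences of -7.34, -5.88 and -5.45, with adjusted p of 0.0534, 0.0596 and 0.0596. C40A11.10 and E01G4.7 had -7.38 and -4.29, with adjusted p of 0.125 and 0.358, and W05H12.2 had -1.40 ± 1.23. edgeR called 0 of the 9 and 0% of all genes, with 719 genes at an unadjusted p under 0.05. With replicate number as a block, limma called 8 of the 9, all lower, beside 120 genes lower and 6 higher. Limma also called 0 of the 9 and 0 of all genes without BB21 or without eri-6 replicate 2, with 385 and 396 genes at an unadjusted p under 0.05. Without BB4 it called 8 of the 9, beside 157 of the 24342 genes lower and 104 higher.

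For adr-1 eri-6;adr-2 the deposited small RNA values cover only genes that the authors selected. They include 5 of the 9 loci, whose values are given with no test. W04B5.1, C36A4.11, C40A11.10 and W05H12.2 are not among the selected genes. K02E2.6 had 56.5 and 119 normalised reads in adr-1 eri-6;adr-2, against 11744 and 15796 in wild type. F55C9.3 had 7.40 and 22.4, against 1902 and 1792, and F55C9.5 had 5.28 and 7.86, against 946 and 920. C44B11.6 had 258 and 269, against 14982 and 16220, and E01G4.7 had 345 and 686, against 8836 and 13165. At all 5 the adr-1 eri-6;adr-2 libraries lay below the wild-type libraries, which are the ones of the eri-6 table under another scaling. The authors selected these genes on the same libraries, so this separation is not independent of the selection. A share over all genes cannot be given. In percent of the wild-type mean, adr-1 eri-6;adr-2 kept 0.637% at K02E2.6, 4.69% at E01G4.7 and 1.69% at C44B11.6, and eri-6 kept 1.34%, 5.0% and 2.0% at the same loci. The difference between these 2 genotypes was not tested.

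Genes next to the loci were examined to see how sharply the low small RNA was bounded. Of 17 neighbouring genes, 13 had enough reads in the eri-6 table. Limma called 0 of them, but it called 0 of all genes, so this count cannot show how sharply the loss was bounded. Of the 17, 6 lay lower in eri-6 without overlap and 2 higher, against 7.4% and 5.67% of all genes tested. The 6 include K02E2.5, which had too few reads to be tested. The lowest was linc-45, a long noncoding RNA gene 128 bp from C44B11.6, with 6.72 and 5.78 normalised reads in eri-6, against 1854 and 2459 in wild type (log2 difference -8.21, adjusted p = 0.0680). W04B5.2 and W04B5.6, 455 bp and 4160 bp from W04B5.1, had log2 differences of -6.74 and -5.63, and E01G4.5, 3547 bp from E01G4.7, had -6.52. W04B5.2 and E01G4.5 are themselves known as ERGO-1 targets. K02E2.11, 1325 bp from K02E2.6, had -2.90. In contrast C36A4.4, only 107 bp from C36A4.11, had 111 and 211 normalised reads in eri-6, against 127 and 330 in wild type. C40A11.4, 160 bp from C40A11.10, had 34.4 and 170, against 37.1 and 76.1. In wild type fbxb-57, between F55C9.3 and F55C9.5, had 2.53 and 3.81 normalised reads. At these 3 places the gene beside a low locus did not separate eri-6 from wild type or had almost no small RNA. C01A2.1, 304 bp from W05H12.2, had 825 and 1771, against 1209 and 4035, and overlapped as W05H12.2 did.

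**Figure D2:**
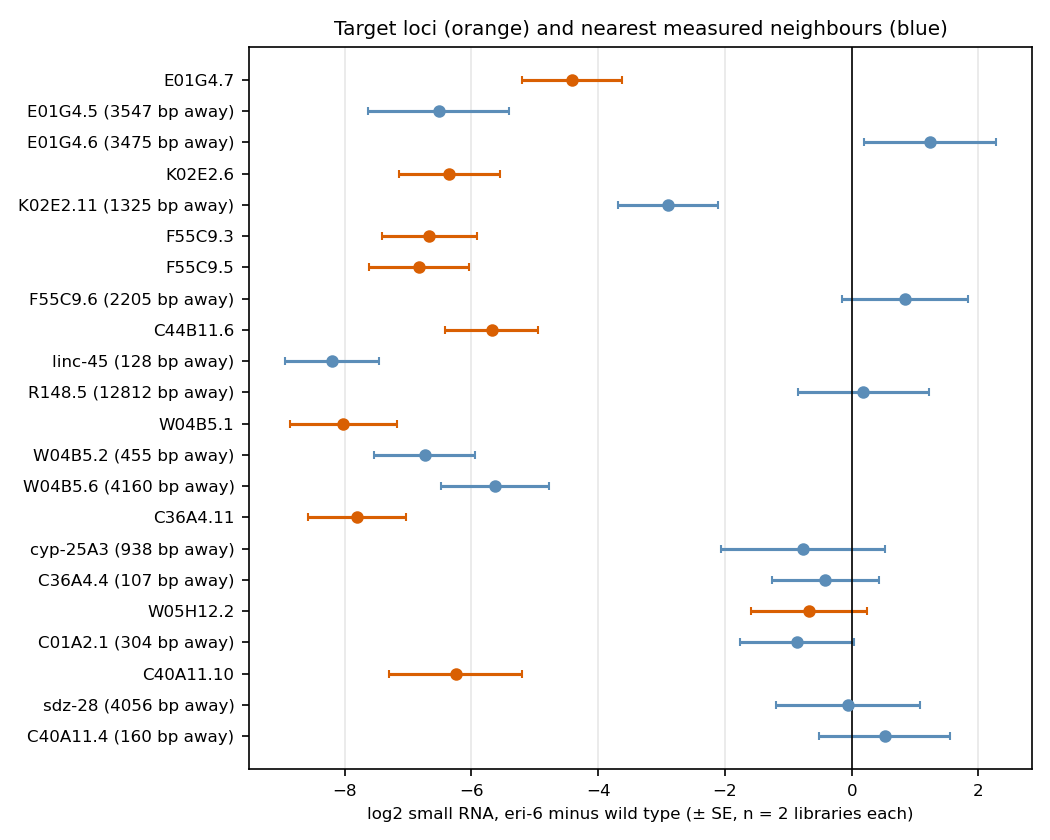
Log2 difference in small RNA, eri-6 minus wild type (± SE, n = 2 libraries each), at the 9 loci (orange) and at their nearest neighbours with enough reads (blue, distance in the label). Low values are also seen at linc-45, W04B5.6 and the known ERGO-1 targets W04B5.2 and E01G4.5, while C36A4.4 and C40A11.4 lie near 0.

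Of 10 other genes known as ERGO-1 targets, 9 were lower in eri-6 without overlap, against 7.4% of all genes. The median log2 difference of the 10 was -5.24. Limma called 0 of them, but it called 0% of all genes. ZK380.5 had 14.3 and 16.2 normalised reads in eri-6, against 1528 and 2167 in wild type. H09G03.1 had a log2 difference of -6.99. C18D4.6 was the one that overlapped, with 846 and 1093 in eri-6, against 688 and 1444 in wild type. The genes closest in pattern to the mean of the 9 loci over the 6 libraries, among 8985 candidates, were W04B5.2, Y37E3.30, Y37E3.23 and linc-24 with Pearson's r of 0.999 each and fbxa-52 with 0.998. Each of the 9 loci followed the mean of the other 8 with r between 0.985 and 0.992, apart from W05H12.2 with r of 0.562. These correlations are descriptions over libraries that differ mostly by eri-6.

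Total RNA shows whether the transcripts of the loci were more abundant where their small RNA was low. Each genotype has 1 deposited FPKM value between 2 bounds, and a locus was called where the bounds of 2 genotypes did not overlap. In eri-6, 5 of the 9 loci were higher than in wild type and 0 were lower, against 12.6% and 7.39% of all genes with at least 1 FPKM. The median log2 ratio on FPKM + 1 was 1.90 over the 9 loci and 0.12 over all genes.

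K02E2.6 had 31.9 FPKM in adr-1 eri-6;adr-2, 65.8 in eri-6 and 12.5 in adr-1;adr-2, against 13.6 in wild type. E01G4.7 had 24, 36.5 and 7.59 FPKM in the same mutants, against 5.09 in wild type. Both were higher than wild type with bounds apart in both genotypes that carry eri-6(mg379), and overlapped wild type in adr-1;adr-2. F55C9.3 had 5.24 FPKM in adr-1 eri-6;adr-2, 15.0 in eri-6 and 0.736 in adr-1;adr-2, against 2.54 in wild type. F55C9.5 had 8.11, 16.2 and 0.411 FPKM in the same mutants, against 2.35 in wild type. This pair was called higher in eri-6, at 4.51-fold and 5.13-fold on FPKM + 1, and overlapped wild type in the other mutants.

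W04B5.1 and C44B11.6 were the loci with bounds below wild type in adr-1;adr-2. F55C9.3, F55C9.5 and C40A11.10 also had lower values there, at 0.491, 0.421 and 0.336 of wild type on FPKM + 1, with bounds that overlapped. W04B5.1 had 47.9 FPKM in adr-1 eri-6;adr-2, 93.6 in eri-6 and 8.34 in adr-1;adr-2, against 42.5 in wild type. It was called higher in eri-6 and lower in adr-1;adr-2. C44B11.6 had 43.5 FPKM in adr-1 eri-6;adr-2, 135 in eri-6 and 14.9 in adr-1;adr-2, against 114 in wild type. It overlapped wild type in eri-6, where its small RNA was 2.0% of wild type, and was called lower in both genotypes without ADAR proteins. Its bounds in adr-1;adr-2 were 8.32 and 21.5 FPKM, against 84.0 and 144 in wild type.

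The remaining 3 loci had wide bounds and were called in no comparison. C36A4.11 had 5.67 FPKM in adr-1 eri-6;adr-2, 6.21 in eri-6 and 4.28 in adr-1;adr-2, against 0.937 in wild type. C40A11.10 had 7.69, 9.04 and 1.77 FPKM in the same mutants, against 7.25 in wild type. W05H12.2 had 0.700, 1.19 and 0.895 FPKM, against 0.133 in wild type, and lay close to the limit of detection.

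**Figure D3:**
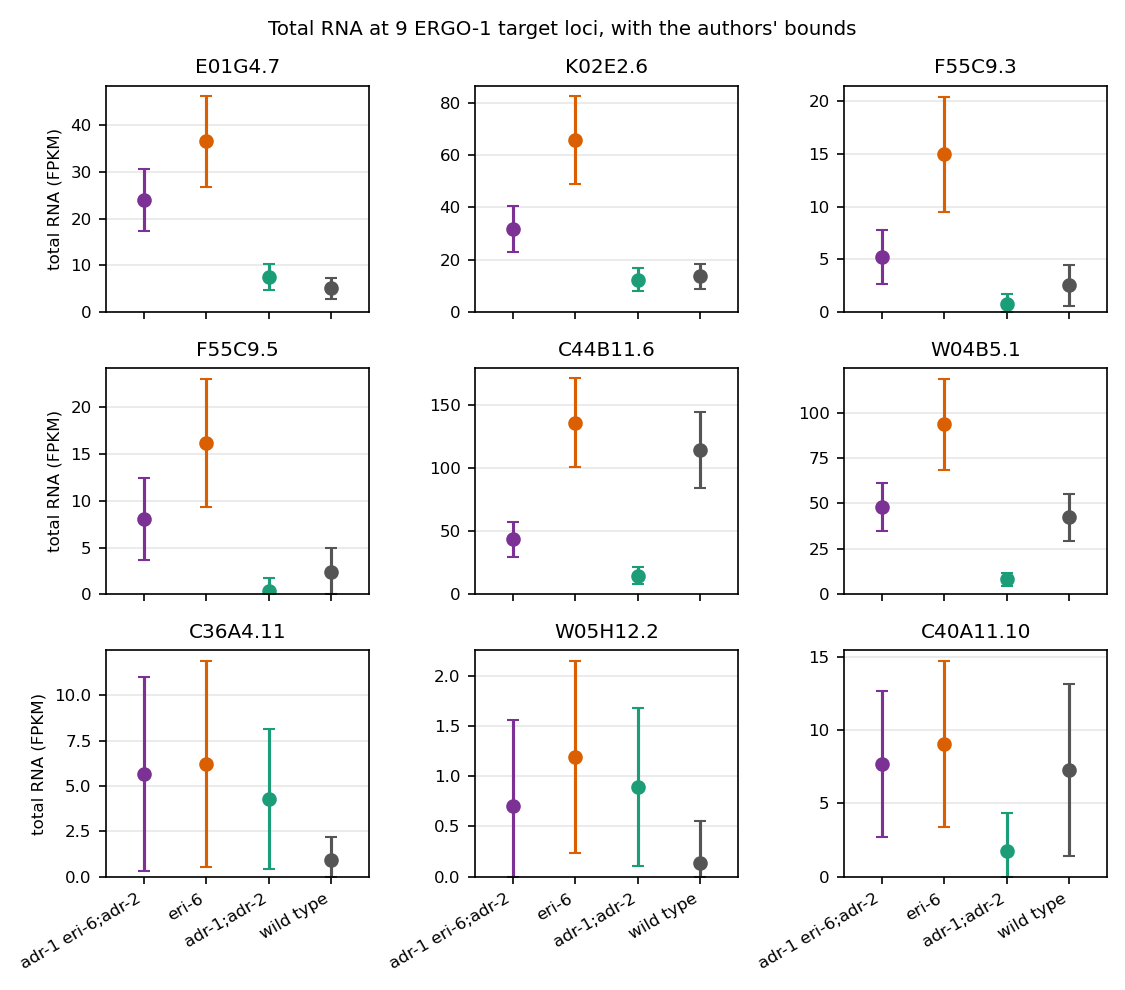
Total RNA of the 9 loci in FPKM with the authors' lower and upper bounds (1 value per genotype over 2 libraries) in adr-1 eri-6;adr-2, eri-6, adr-1;adr-2 and wild type. The eri-6 value is the highest at every locus. The adr-1;adr-2 value is the lowest at C44B11.6 and W04B5.1, with bounds below wild type. It is also the lowest at K02E2.6, F55C9.3, F55C9.5 and C40A11.10, with bounds that overlap wild type.

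Against wild type, adr-1 eri-6;adr-2 had 2 loci higher and 1 lower, where 21.6% of all genes were higher and 18.4% lower, so this count was near the background. In adr-1;adr-2, 0 loci were higher and 2 lower, where 21.1% of all genes were higher and 14.8% lower, so 2 of 9 was also not far from the background. Set against adr-1;adr-2, adr-1 eri-6;adr-2 had 6 of the 9 loci higher and 0 lower, where 3.01% of all genes were higher and 4.37% lower. These were E01G4.7, K02E2.6, F55C9.3, F55C9.5, C44B11.6 and W04B5.1, with the highest ratios at F55C9.5 (6.45-fold) and W04B5.1 (5.23-fold), and the median log2 ratio of the 9 was 1.54. By strain name both groups would carry the same adr alleles, and by the allele labels they would not. Set against eri-6, adr-1 eri-6;adr-2 had 4 loci lower, namely K02E2.6, F55C9.3, C44B11.6 and W04B5.1, and 0 higher, where 13.1% of all genes were lower and 9.87% higher. C44B11.6 was 0.326 of its eri-6 level there on FPKM + 1.

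Markers of the germline moved with genotype in the same total RNA values. The summed FPKM of the oocyte markers rme-2 and oma-1 was 99.3 in adr-1 eri-6;adr-2, 39.6 in eri-6 and 113 in adr-1;adr-2, against 24.7 in wild type. The 3 sperm markers summed to 37.7, 28.9 and 30.8 FPKM in the same mutants, against 9.81 in wild type. Among them spe-9 went the other way, with 0.119, 0.295 and 0.231 FPKM, against 0.418 in wild type. The 3 vitellogenin genes of the intestine summed to 487, 513 and 896 FPKM, against 1162 in wild type. In adr-1;adr-2, however, vit-2 was higher, with 132 FPKM, against 108 in wild type. Summed markers of muscle (10.9, 8.77 and 13.7, against 12.3), hypodermis (534, 648 and 493, against 678) and neurons (101, 94.0 and 91.1, against 116) varied less. The hypodermis sum was almost all col-19, and rol-6 had 1.36, 0.306 and 1.29 FPKM, against 0.446 in wild type. The neuron sum was lower through snb-1 only. The neuron marker unc-64 was higher in the same mutants, with 17.884, 16.301 and 16.048 FPKM, against 13.293 in wild type. In adr-1;adr-2 the muscle markers differed in direction. There unc-54 had 10.06 FPKM, against 8.333 in wild type, and myo-3 had 3.604, against 4.014. No measured marker was at 0, though spe-9 was low in all genotypes, and a value above 0 does not by itself show a tissue. The oocyte marker puf-5 and the neuron marker unc-17 had no total RNA value. The part of tissue content in the levels of the loci was not tested.

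The genes of the pathway itself were read from a list of 26 matched names. In small RNA of eri-6 against wild type their median log2 difference was -0.21. Limma called 0 of them, but it called 0% of all genes. Without overlap, 2 of the 26 were lower and 0 higher, against 7.4% and 5.67% of all genes. In total RNA 19 were measured. In adr-1 eri-6;adr-2 11 of them were higher and 2 lower than in wild type, against 21.6% and 18.4% of all genes. In eri-6 4 were higher and 1 lower, against 12.6% and 7.39%, and in adr-1;adr-2 12 were higher and 0 lower, against 21.1% and 14.8%. The polymerase gene rrf-3 had 17.5 FPKM in adr-1 eri-6;adr-2, 4.23 in eri-6 and 17.6 in adr-1;adr-2, against 2.23 in wild type. The Argonaute gene ergo-1 had 17.1, 6.78 and 15.6 FPKM, against 5.16 in wild type. The eri-7 gene had 18.0, 10.1 and 20.8 FPKM, against 3.39 in wild type, and nrde-3 had 4.92, 2.18 and 3.90 FPKM, against 1.67. These genes were highest in the genotypes in which the oocyte markers were highest, and the part of that was not tested.

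The RNAi foods were first checked at their own targets. With 1 library a condition, nrde-3 had 8.08 FPKM in the adr-1 eri-6;adr-2 library labelled nrde-3 RNAi, against 15.4 on control, and 5.26 in wild type, against 5.76 on control. The drh-1 gene went against its label, with 65.4 FPKM in the adr-1 eri-6;adr-2 library labelled drh-1 RNAi, against 19 on control, and 32.3 in wild type, against 14.3 on control. In the libraries labelled drh-1 RNAi eri-7 was lower, with 2.96 FPKM against 17.7 on control in adr-1 eri-6;adr-2, and 11.5 against 30.2 in wild type. The eri-6 gene was lower there too, with 3.68 FPKM against 7.10 in adr-1 eri-6;adr-2, and 7.77 against 13.8 in wild type. Directions drawn from the libraries labelled drh-1 RNAi therefore rest on a label that the mRNA of the target gene went against, and in wild type nrde-3 was nearly level between the library labelled nrde-3 RNAi and control. No p-value is possible with 1 library a condition, and a locus was counted at a ratio of at least 4 on FPKM + 1.

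On control food, adr-1 eri-6;adr-2 had 3 of the 9 loci at least 4-fold above wild type and 0 below, against 3.48% of all genes above and 1.76% below. F55C9.3 had 12.7 FPKM in adr-1 eri-6;adr-2, against 0.295 in wild type, and F55C9.5 had 15.1, against 0.567. C40A11.10 had 19.5 FPKM in adr-1 eri-6;adr-2, against 1.95 in wild type. W04B5.1 came close to the threshold, with 19.5 FPKM against 4.24, a ratio of 3.91. E01G4.7 had 32.8 against 16, K02E2.6 31.9 against 18.2 and C44B11.6 58.0 against 48.0. For C44B11.6 this polyadenylated RNA did not show the lower level that total RNA of adr-1 eri-6;adr-2 had. The higher mRNA of C40A11.10 and W04B5.1 was likewise not seen in total RNA. There they were at 1.05-fold and 1.12-fold of wild type on FPKM + 1, with bounds that overlapped. C36A4.11 had 1.48 FPKM in adr-1 eri-6;adr-2, against 2.54 in wild type, and W05H12.2 had 1.57, against 1.79. In the mRNA tables E01G4.7 and W04B5.1 share their locus with 2 and 3 other genes, and K02E2.6 and W05H12.2 with 1 other gene each, so their mRNA values may be less certain. Tissue markers differed between the same control libraries. Their summed FPKM in adr-1 eri-6;adr-2 was 1338 for oocyte, 19.5 for sperm and 4081 for intestine, against 668, 2.10 and 6202 in wild type, and their part in these differences was not tested.

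Between the libraries labelled nrde-3 RNAi, 3 loci were at least 4-fold above wild type in adr-1 eri-6;adr-2 and 0 below, against 2.69% and 1.57% of all genes. Between those labelled drh-1 RNAi 4 were above and 0 below, against 2.84% and 1.61%. At least 2-fold above wild type were 6 loci in the first pair and 8 in the second, against 7.96% and 8.18% of all genes. F55C9.3, F55C9.5 and C40A11.10 were among them each time. W04B5.1 was the fourth in the libraries labelled drh-1 RNAi, with 49.5 FPKM in adr-1 eri-6;adr-2, against 2.91 in wild type.

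The library labelled nrde-3 RNAi was then set against control within each genotype. In adr-1 eri-6;adr-2 all 9 loci were above control and 0 reached 4-fold in either direction, where 1.19% of all genes did upward and 1.85% downward. At least 2-fold was reached by 4 of the 9, against 12.1% of all genes. C44B11.6 had 176 FPKM, against 58.0 on control, and W04B5.1 had 65.2, against 19.5. K02E2.6 had 65.4, against 31.9, and C36A4.11 had 6.24, against 1.48. The other 5 lay between 1.35-fold and 1.78-fold above control on FPKM + 1. Between these 2 libraries the oocyte markers summed to 619 FPKM in the one labelled nrde-3 RNAi, against 1338 on control, the sperm markers to 7.91, against 19.5, and the intestine markers to 7924, against 4081. The part of tissue content in the RNAi comparisons was not tested.

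In wild type 7 of the 9 loci were above control and 1 reached 4-fold, where 1.45% of all genes did upward and 1.21% downward. At least 2-fold was reached by 3, against 3.28% of all genes. This was W04B5.1, with 27.9 FPKM in the library labelled nrde-3 RNAi, against 4.24 on control. C44B11.6 had 131, against 48.0 on control, and K02E2.6 had 36.7, against 18.2. C40A11.10 had 5.02, against 1.95 on control. E01G4.7 was nearly level at 17.2, against 16, and F55C9.3 and F55C9.5 stayed low at 1.11 and 1.18, against 0.295 and 0.567. C36A4.11 and W05H12.2 were below control. The marker sums in wild type were 515 FPKM for oocyte, 0.981 for sperm and 7389 for intestine, against 668, 2.10 and 6202 on control. The median log2 ratio of the 9 was 0.83 in adr-1 eri-6;adr-2 and 0.70 in wild type, and that of all genes was 0.11 and -0.06.

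In the libraries labelled drh-1 RNAi, 0 loci reached 4-fold above control in adr-1 eri-6;adr-2, where 1.17% of all genes did, or in wild type, where 1.15% did. At 4-fold below control there were 0 in both genotypes, where 3.22% and 1.27% of all genes did. In adr-1 eri-6;adr-2 all 9 loci were above control with a median log2 ratio of 0.77, where that of all genes was 0.00. The same control library served the nrde-3 comparison, so the results of the 2 foods are not independent. C44B11.6 (124 FPKM, against 53.3 on control) and W04B5.1 (49.5, against 17.9) passed 2-fold, as 6.9% of all genes did. In wild type 3 of the 9 were above control, with 0 at 2-fold against 3.83% of all genes, and the median log2 ratio was -0.10, where that of all genes was -0.19. C44B11.6 had 43.3 FPKM there, against 44.2 on control, and W04B5.1 had 2.91, against 3.91. The intestine markers summed to 11263 FPKM in the adr-1 eri-6;adr-2 library labelled drh-1 RNAi, against 3745 on control, and to 18451 in that of wild type, against 5731. The muscle markers summed to 136, against 66.8 on control, in adr-1 eri-6;adr-2, and to 125, against 40.9, in wild type. The drh-1 and nrde-3 tables scale the same control libraries differently, with a ratio of 0.920 in adr-1 eri-6;adr-2 and 0.922 in wild type, so values are compared within a table.

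**Figure D4:**
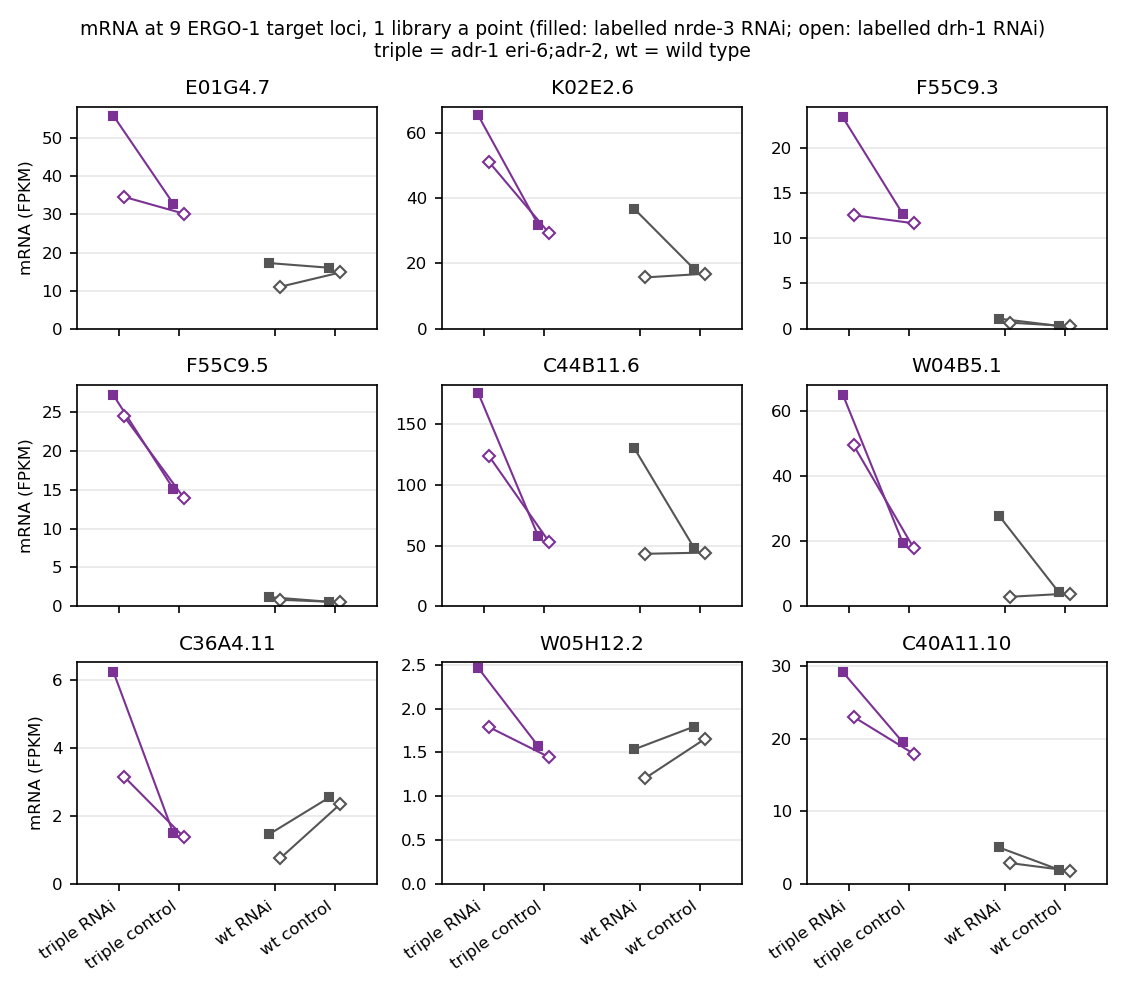
Messenger RNA of the 9 loci in FPKM, 1 library a point, in adr-1 eri-6;adr-2 (purple) and wild type (grey), with lines joining the library labelled nrde-3 RNAi (filled) or drh-1 RNAi (open) to its control. All 9 loci lie above control in adr-1 eri-6;adr-2 on both foods, which share 1 control library, so the foods are not independent. In wild type C44B11.6 and W04B5.1 are well above control in the library labelled nrde-3 RNAi.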

How the data were processed

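Small RNA of 18 to 28 nt was treated with a 5′ polyphosphatase, total RNA was depleted of ribosomal RNA, and mRNA was polyadenylated and strand-specific, per the labels' protocols. The submitters' processing notes name the build WBcel235 and the tools BWA, Trim Galore, TopHat2, Cufflinks, Cuffdiff, featureCounts and DESeq2, with no versions. The deposited small RNA values are a normalised signal per gene and library. Reads were recovered from it as whole numbers for 100% of the values within 0.01 read. The authors deposited total RNA as 1 FPKM per genotype over 2 libraries, with bounds of unstated level, and mRNA as 1 FPKM per library. Starts were raised by 1, since 36.9% of the deposited starts then equalled RefSeq, against 1% without.

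Each small RNA table was fitted alone with limma 3.58.1 (trend, R 4.3.3) on log2(value + 1) of genes that averaged 10 or more, with Benjamini-Hochberg adjustment over all of them at 0.05. The joint fit used TMM-scaled log2 CPM of recovered reads. edgeR 4.0.16 and DESeq2 1.42.0 on recovered reads were alternatives. Only the limma and edgeR fits of each single table were also run on simulated counts. Those counts had a set spread with no strain or replicate effect, so they do not show how the fits behave on these libraries. DESeq2, the joint fit and the replicate block were not simulated. Tables and figures were made in Python 3.11.15 (numpy 2.4.6, pandas 2.3.3, matplotlib 3.10.9). Samples were grouped by labelled genotype and food. Labels do not show the libraries of 1 genotype as separate cultures, so p-values measure the spread between these samples, which may be technical. Gene IDs with more than 1 entry (321 entries in total RNA and 91 IDs in each mRNA table) were left out. Of 29 pathway names written, 26 were matched. The named genes were all 9 loci, their nearest neighbours, and lists of pathway genes, other ERGO-1 targets and tissue markers. The loci and lists were chosen with earlier results of these data known.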

Additional observations from a re-analysis of the deposited data

Results flagged for a closer look

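Some loci moved in opposite directions in the 2 genotypes between an RNAi library and its control, and with 1 library a condition this difference was not tested. Values here are log2 ratios on FPKM + 1 against control, given for adr-1 eri-6;adr-2 and then for wild type. In the libraries labelled nrde-3 RNAi, C36A4.11 had 1.54 and -0.53 (a difference of 2.07), and W05H12.2 had 0.43 and -0.14 (a difference of 0.57). In the libraries labelled drh-1 RNAi, W04B5.1 had 1.42 and -0.33 (1.75 apart), C36A4.11 had 0.81 and -0.93 (1.74 apart) and C44B11.6 had 1.20 and -0.03 (1.24 apart). K02E2.6 had 0.78 and -0.10 (0.88 apart), E01G4.7 had 0.19 and -0.39 (0.58 apart), and W05H12.2 had 0.19 and -0.27 (0.46 apart). In the libraries labelled drh-1 RNAi the median log2 ratio of all genes was 0.00 in adr-1 eri-6;adr-2 and -0.19 in wild type, so in wild type C44B11.6 and K02E2.6 lay above that of all genes and their negative sign depends on the scaling of the libraries. The drh-1 gene itself was higher in the libraries labelled drh-1 RNAi than on control.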

How the results depend on the processing

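In eri-6 against wild type, where limma called 0 of 9 loci, a mean of at least 50 called 8 (beside 68 lower and 4 higher of 13880 genes), as did DESeq2 (124 and 14 of 23380) and the replicate block (98 and 8 of 23380). Leaving out 1 library gave between 4 and 8. Pseudocounts of 10 and 0.5, no filter, TMM and edgeR gave 0. In eri-6 against adr-1;adr-2, where limma called 3, scaling without TMM called 7 (beside 144 lower and 33 higher of 24342 genes), edgeR 0 and the replicate block 8 (120 and 6), and leaving out 1 library gave between 0 and 8. Replicate numbers are not said to pair libraries, though deviations of same-numbered libraries correlated at 0.6007 to 0.7016 over 24342 genes.

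In total RNA a ratio of at least 2 without bounds called 5 loci, against 3 by bounds, in adr-1 eri-6;adr-2 (4 higher and 1 lower, where 24.3% and 22.7% of all genes passed), and 6, against 2, in adr-1;adr-2 (1 higher and 5 lower, where 25% and 18.7% passed). In mRNA a fold of at least 2 counted 8 loci between genotypes in the libraries labelled drh-1 RNAi and 6 in the libraries labelled nrde-3 RNAi, where 4 and 3 reached 4-fold. Against control it counted 4 loci in the libraries labelled nrde-3 RNAi (1 at 4-fold with a pseudocount of 0.1) and 2 in the libraries labelled drh-1 RNAi in adr-1 eri-6;adr-2, where 0 reached 4-fold, and 3 against 1 in the libraries labelled nrde-3 RNAi in wild type. The control libraries of the other RNAi table gave a value only for the genotype comparison on control food.

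Signs turned in adr-1;adr-2 against wild type at E01G4.7 (0.23 by edgeR, 0.15 by DESeq2, against -0.20) and W04B5.1 (0.039 with TMM, against -0.04). Without 1 library the log2 difference there ran from -1.30 to 0.89 at E01G4.7, -0.75 to 1.94 at F55C9.3, -0.56 to 2.23 at F55C9.5, -0.73 to 0.13 at C44B11.6, -0.68 to 0.60 at W04B5.1, -1.01 to 0.036 at C36A4.11, -0.96 to 2.27 at W05H12.2 and -0.44 to 2.56 at C40A11.10. At W05H12.2 it ran from -1.48 to 0.13 in eri-6 against wild type and from -3.05 to 0.072 against adr-1;adr-2. The cause of these changes was not tested. A lone library in these fits is assumed to vary like the other group.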
